A study of Mus musculus with 4 samples.

Results

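Transcripts of the cytotoxic granule proteases and of perforin were followed in tumour-infiltrating mouse CD8 T cells. The genes are the 9 granzymes Gzma, Gzmb, Gzmc, Gzmd, Gzme, Gzmf, Gzmg, Gzmk and Gzmm and the perforin gene Prf1. They were chosen by symbol, and all 10 were found among the 45773 genes kept from the deposited tables. Levels are in TPM, a length-corrected share of all transcripts in a library, so levels of different genes can be set beside each other.

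There were 4 SMART-seq libraries, 1 for each group, made from full-length cDNA amplified from 10000 to 20000 sorted cells. In the gain experiment, MC38-gp100 tumours, a mouse colon carcinoma line carrying the antigen gp100, were started with 300000 cells in Rag2 KO mice, which lack T and B cells of their own. PmelI CD8 T cells, whose transgenic receptor sees gp100, received the retroviral vector MigRI, empty or carrying Klf4, were transferred intravenously on day 7 and were taken back from the tumour as GFP+ cells on day 15. In the loss experiment, MC38 tumours grew in control (WT) mice or in mice labelled Klf4 cKO, and their PD1+ CD8+ infiltrating cells were sorted on day 14. The labels used here do not give the Cre driver of the cKO mice, the part of Klf4 that was deleted, the age of the mice or how many animals gave each library. With 1 library in each group there is no spread between animals, no test and no p-value, and every difference below compares 1 library with another.

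Granzymes are serine proteases that killer lymphocytes store in secretory granules together with perforin. After the granule is released onto a target cell, perforin opens its membrane and the granzymes enter. Granzyme B, encoded by Gzmb, cleaves after aspartate and starts apoptosis through Bid and the caspases. Granzymes A and K are tryptases that cleave after basic residues, and granzyme M prefers methionine and leucine. Granzymes C to G are close relatives of granzyme B in rodents. In exhausted CD8 T cells, which persist in tumours under lasting antigen and carry PD1, killing is reduced to varying degrees, and the series concerns the part that Klf4, a Kruppel-like zinc finger transcription factor, plays in it.

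Gzmb to Gzmg form a single cluster on the minus strand of chromosome 14, from 56117626 to 56262260 on mm10 in GENCODE vM21, a span of 144.6 kb. Gzma (113093825 to 113100981) and Gzmk (113171608 to 113225908) lie side by side on the minus strand of chromosome 13. Gzmm (79689020 to 79695261) and Prf1 (61297833 to 61304680) are on the plus strand of chromosome 10. The first 90 coding bases of the 6 chromosome 14 genes, from the start codon, are shown because their likeness limits how well short reads can be given to 1 of them. Lower case letters match Gzmb at the same position and capitals differ from it.
Gzmb: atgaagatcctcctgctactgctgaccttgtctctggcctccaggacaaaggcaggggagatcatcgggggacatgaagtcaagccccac
Gzmc: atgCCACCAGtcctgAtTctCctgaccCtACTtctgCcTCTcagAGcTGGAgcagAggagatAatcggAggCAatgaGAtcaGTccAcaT
Gzmd: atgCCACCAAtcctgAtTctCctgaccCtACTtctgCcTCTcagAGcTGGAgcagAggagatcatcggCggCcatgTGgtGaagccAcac
Gzme: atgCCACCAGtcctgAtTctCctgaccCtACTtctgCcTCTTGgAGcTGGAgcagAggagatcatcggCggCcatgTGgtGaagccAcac
Gzmf: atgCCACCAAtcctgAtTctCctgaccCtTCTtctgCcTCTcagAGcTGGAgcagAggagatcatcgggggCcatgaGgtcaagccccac
Gzmg: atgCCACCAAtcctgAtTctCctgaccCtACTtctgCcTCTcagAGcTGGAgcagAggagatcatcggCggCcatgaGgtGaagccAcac
Gzmc differed from Gzmb at 35 of these 90 bases and Gzmf at 27, while Gzmd and Gzmg differed from each other at 1 base. Over the whole aligned coding sequence, Gzmd and Gzme were 94.8% identical, Gzme and Gzmg 88.9%, Gzmc and Gzmf 73.6%, and Gzmb and Gzmc 75.4%. Of all 50-base windows in the coding sequence, 21.8% of those of Gzme, 19.3% of those of Gzmd and 14.0% of those of Gzmg also occurred in a transcript of another granzyme. For Gzmc the share was 3.15%, for Gzmf 2.01%, and for Gzma, Gzmb, Gzmk, Gzmm and Prf1 it was 0%. No window of 100 bases was shared between any of them. The read length is not given in the sources used here, so the values of Gzmd, Gzme and Gzmg are the least certain as single genes, and the sum over the cluster is also given.

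Klf4 itself read 8.69 TPM in MigRI, 26.0 in Klf4-transduced cells, 7.52 in control and 9.28 in the library labelled Klf4 cKO. A gene-level value does not show whether a part of the gene was lost, so the last label is not checked by it and directions drawn from that library rest on the label. Between 10542 and 13170 genes stood at 1 TPM or more in each library. Read depth cannot be recovered from TPM, and no counting interval is given for any value. Over the 12570 measured genes, those averaging 1 TPM or more, the median difference of log2(TPM + 1) was 0.79 for Klf4-transduced minus MigRI and 0.74 for Klf4 cKO minus control. Each difference is therefore given as deposited and relative to this median. The receptor constant genes Trac, Trbc1 and Trbc2, which mark alpha beta T cells, moved the other way in the gain experiment. Their mean difference was -2.03 log2 there and 1.82 log2 in the loss experiment, and member differences are also given relative to them. In bulk libraries, fewer T cells and less RNA of a gene in each T cell cannot be told apart.

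Gzmb was the granzyme with the highest level in each of the 4 libraries. It read 1003 TPM in MigRI, 1007 with Klf4, 402 in control and 3154 in the library labelled Klf4 cKO. Among all genes this was rank 190, 136, 397 and 30 in the same order. As deposited the gain libraries were thus level with each other, while relative to the median gene Gzmb was at -0.79 log2 with Klf4 and relative to the receptor constant genes at 2.04 log2. The loss libraries stood apart on all 3 scales.

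Gzmc, the relative closest to Gzmb on the chromosome, read 668 TPM in MigRI, 87.1 with Klf4, 199 in control and 877 in the library labelled Klf4 cKO. Gzmf read 53.4 TPM in MigRI, was listed at 0 with Klf4, and read 359 in control and 656 in the library labelled Klf4 cKO. It was the only member among the 21 genes listed at 0 with Klf4 that reached 50 TPM elsewhere. Since an estimate may fail to 0, no fold is given for Gzmf in the gain experiment.

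Gzmd and Gzme kept company across the libraries. Gzmd was at 27.4, 3.22, 54.0 and 149.8 TPM in MigRI, Klf4-transduced, control and Klf4 cKO, and Gzme at 20.1, 0.511, 35.3 and 132.3 TPM. Gzmg, at 1.88 TPM, 0, 2.76 TPM and 9.10 TPM, was the lowest of the cluster genes in every library except the Klf4-transduced one, where Gzmf was listed at 0 too. All 3 were highest in the library labelled Klf4 cKO and lowest with Klf4. Gzmn, a further granzyme gene of the cluster, was listed at 0 in all 4 libraries.

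Gzma, a tryptase of killer cells, read 78.1 TPM in MigRI, 35.1 with Klf4, 196 in control and 467 in the library labelled Klf4 cKO. Gzmk, its neighbour, which marks early or less differentiated effector cells, was at 4.85, 1.43, 26.5 and 206 TPM in the same order. Both loss libraries stood above both gain libraries for these 2 genes, as they did for Gzmd, Gzme, Gzmf and Gzmg. The cells, hosts and days differed between the experiments, and no difference is taken. Gzmm was low throughout, at 6.05, 2.17, 0.966 and 3.59 TPM, and was the only member that was highest in MigRI.

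Prf1 read 31.1 TPM in MigRI, 69.7 with Klf4, 58.9 in control and 166 in the library labelled Klf4 cKO. As deposited, it was the only member at least 2-fold higher both with Klf4 than in MigRI and in the library labelled Klf4 cKO than in control. With no replicates, the neighbours in any of these orders cannot be told apart by a spread.

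**Figure D1:**
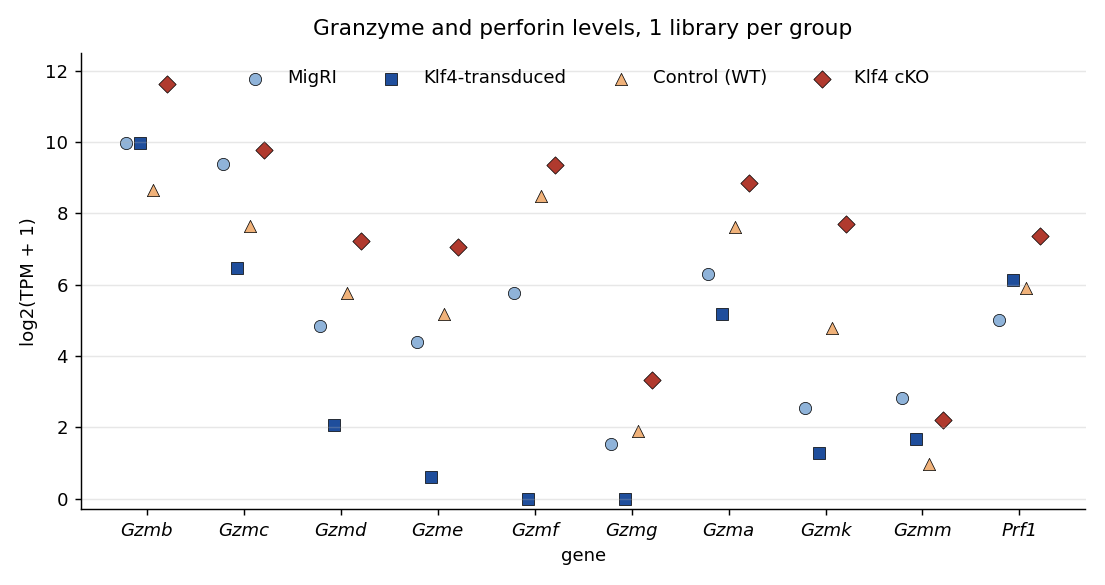
Level of each member on the log2(TPM + 1) scale (vertical axis) in the 4 libraries, with 1 point for each library and no error bars because each group has 1 library. Gzmb overlaps in MigRI and Klf4 (1003 and 1007 TPM), Gzmc to Gzmg are lowest with Klf4, and the library labelled Klf4 cKO is highest for every member except Gzmm.

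In the gain experiment the question was which granule transcripts differ when transferred tumour-specific cells carry Klf4. The 9 granzymes together made up 1862 TPM in MigRI and 1136 with Klf4, a ratio of 0.610. Without Gzmb the sums were 859 and 129 TPM, so that the other 8 granzymes together were 6.64-fold lower while Gzmb had a ratio of 1.00. Within the chromosome 14 cluster, the 5 genes other than Gzmb summed to 770 TPM in MigRI and 90.8 TPM with Klf4, 8.49-fold lower.

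As deposited, 8 of 10 members were at least 2-fold lower and 1 was at least 2-fold higher, where 10.3% of all measured genes were lower and 43.7% higher by that much. The 8 were Gzma, Gzmc, Gzmd, Gzme, Gzmf, Gzmg, Gzmk and Gzmm, and 6 of them were above 0 in both libraries. The median difference of the 10 members was -1.40 log2, beside 0.79 log2 over all measured genes. Gzme had the lowest difference among members above 0 in both libraries, -3.81 log2, followed by Gzmc at -2.92 and Gzmd at -2.75. Gzme was at 0.511 TPM with Klf4, and its difference depends on the pseudocount. With a pseudocount of 5 it was -2.19 log2, and Gzmc, at -2.87, was lower. Gzmk, Gzmm and Gzma were closer together at -1.27, -1.15 and -1.13 log2. Gzmg, Gzmk and Gzmm are low genes, and with a pseudocount of 5 their differences passed inside 2-fold, which left 5 members lower.

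Relative to the median gene, the same count of 8 of 10 was at least 2-fold lower, beside 23.6% of all measured genes, and 0 were higher, beside 21.4%. Gzmb was at -0.79 log2 and Prf1 at 0.34 log2 on this scale, so Prf1 was past 2-fold as deposited and inside it relative to the median gene. Relative to the receptor constant genes, which were 4.10-fold lower with Klf4, the picture was split. On that scale Gzmb and Prf1 were higher by 2.04 and 3.17 log2, Gzmc, Gzmd and Gzme were at -0.89, -0.72 and -1.77 log2, and Gzma, Gzmk and Gzmm turned to 0.90, 0.77 and 0.88 log2. Gzmd, Gzme, Gzmk and Gzmm were low with Klf4, and their values on this scale depend on the pseudocount. The 2 members at least 2-fold higher stood beside 90.2% of all measured genes and the 2 that were lower, Gzme and Gzmf, beside 0.804%. Gzmf was listed at 0 with Klf4, so only 1 of these 2, Gzme, was above 0 in both libraries, and it was at 0.511 TPM with Klf4. The summed granzymes were at 9.24 TPM for each 100 TPM of the receptor constant genes in MigRI and at 21.3 TPM with Klf4.

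Shares within the granzyme sum do not depend on the scaling of the library. Gzmb made up 53.8% of the granzyme sum in MigRI and 88.6% with Klf4, while Gzmc went from 35.9% to 7.66%. The share of Gzmd went from 1.47% to 0.284% and that of Gzme from 1.08% to 0.0450%. On other chromosomes, the share of Gzma went from 4.19% to 3.09%, that of Gzmk from 0.260% to 0.126% and that of Gzmm from 0.325% to 0.191%. Measured against Gzmb, Gzmc stood at 66.6% of its level in MigRI and at 8.65% with Klf4, and Prf1 at 3.10% and 6.92%. The Klf4-transduced library was thus left with a granzyme pool of Gzmb and little else, and with more perforin for each unit of Gzmb.

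**Figure D2:**
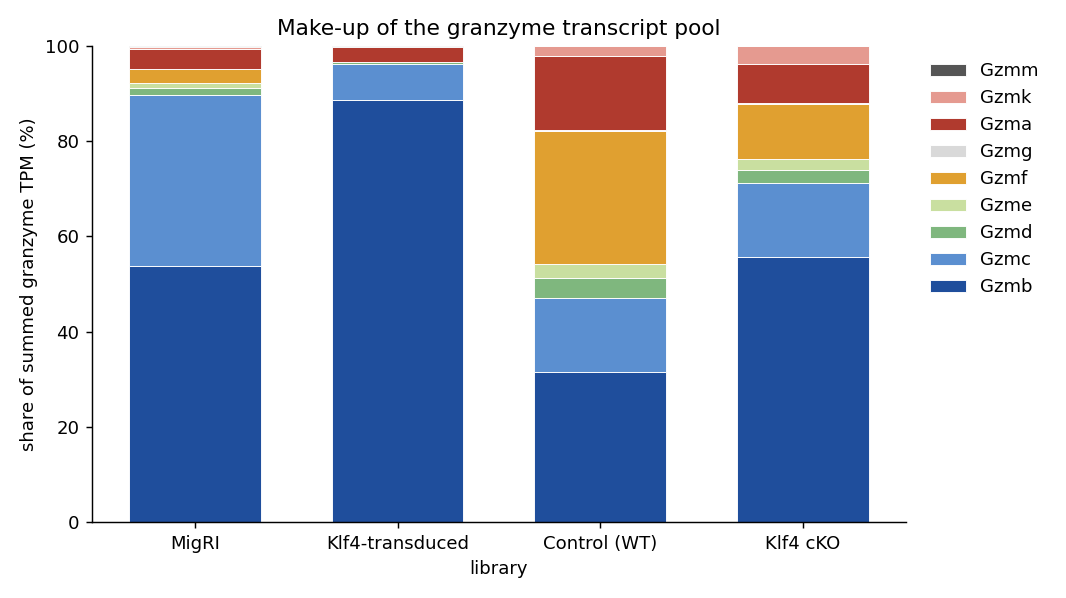
Share of each granzyme in the summed TPM of the 9 granzymes (vertical axis, percent) in each library. Gzmb fills 53.8%, 88.6%, 31.5% and 55.8% of the bars from left to right, and Gzmf is largest in control at 28.1%.

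In the loss experiment the question was which granule transcripts of PD1+ cells differ in mice labelled as lacking Klf4. The 9 granzymes summed to 1276 TPM in control and 5654 in the library labelled Klf4 cKO, 4.43-fold higher. Without Gzmb the sums were 874 and 2500.1 TPM, 2.86-fold higher. As deposited, 9 of 10 members were at least 2-fold higher and 0 were lower, where 38.4% of all measured genes were higher and 6.92% lower by that much. The median member stood at 1.47 log2, beside 0.74 log2 over all measured genes.

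Gzmb and Gzmk had the highest differences, 2.97 and 2.91 log2, which correspond to 7.84-fold and 7.79-fold in TPM. Gzmc followed at 2.13 log2 and Gzme at 1.88 log2. Prf1, Gzmd, Gzmg, Gzma and Gzmm lay between 1.22 and 1.48 log2. Gzmf, at 0.87 log2, was the only member inside 2-fold, with 359 TPM in control.

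Relative to the median gene, 4 of 10 members were at least 2-fold higher, beside 12.4% of all measured genes, and 0 were lower, beside 16.2%. The 4 were Gzmb at 2.23, Gzmk at 2.18, Gzmc at 1.40 and Gzme at 1.14 log2. Prf1 was at 0.74, Gzma at 0.51 and Gzmf at 0.13 log2 on this scale. Relative to the receptor constant genes, which were 3.53-fold higher in the library labelled Klf4 cKO, only Gzmb and Gzmk remained at least 2-fold higher, at 1.15 and 1.10 log2, beside 0.716% of all measured genes. On that scale 0 members were at least 2-fold lower, beside 53.8%, and Gzma, Gzmd, Gzmf, Gzmg, Gzmm and Prf1 had negative values, from -0.95 for Gzmf to -0.34 for Prf1. The granzyme sum was at 50.9 TPM for each 100 TPM of the receptor constant genes in control and at 64.9 in the library labelled Klf4 cKO.

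The make-up of the granzyme pool also differed between the loss libraries. Gzmb made up 31.5% of the granzyme sum in control and 55.8% in the library labelled Klf4 cKO. Gzmk went from 2.08% to 3.65%, while Gzmf went from 28.1% to 11.6% and Gzma from 15.4% to 8.25%. Gzmc held 15.6% and 15.5%, so its share was level although its TPM was 4.40-fold higher. Measured against Gzmb, Prf1 was at 14.7% in control and 5.26% in the library labelled Klf4 cKO, and Gzmf at 89.2% and 20.8%.

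**Figure D3:**
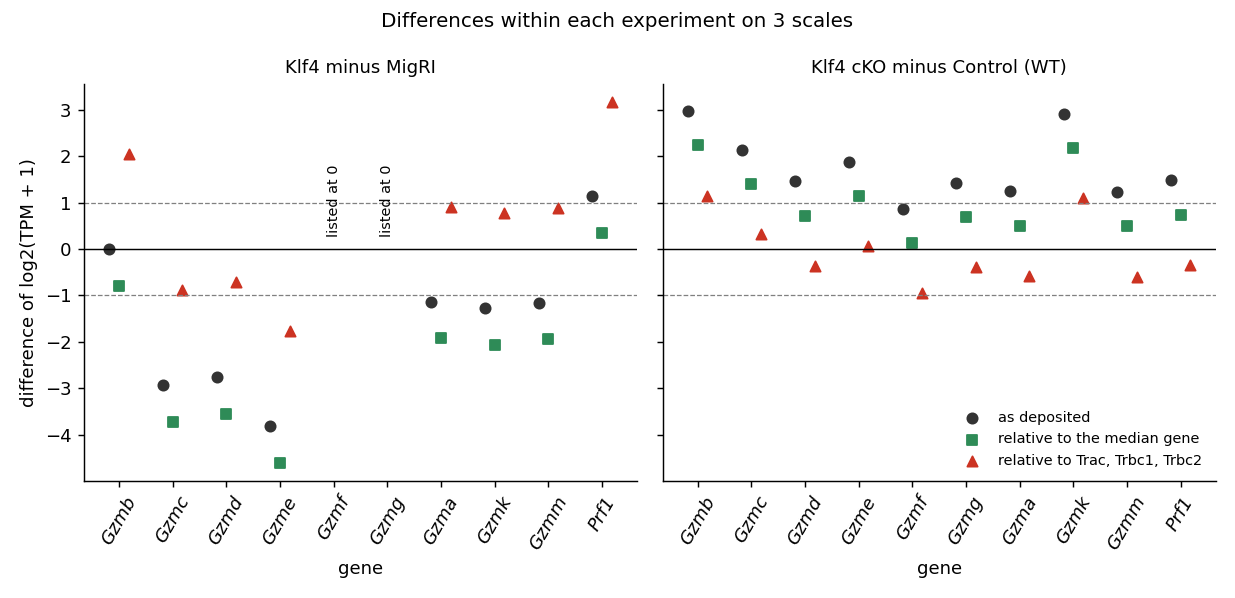
Difference of log2(TPM + 1) for each member in the gain experiment (left) and the loss experiment (right), as deposited, relative to the median measured gene and relative to Trac, Trbc1 and Trbc2. Dashed lines mark 2-fold, and members listed at 0 in the Klf4-transduced library have no point. In the gain experiment Gzmc, Gzmd and Gzme lie below 0 on all 3 scales, and in the loss experiment Gzmb and Gzmk lie above 1 on all 3. Gzmd and Gzme were at 3.22 and 0.511 TPM with Klf4, so their points in the gain experiment depend on the pseudocount.

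Set side by side, 7 members were at least 2-fold lower with Klf4 and at least 2-fold higher in the library labelled Klf4 cKO as deposited, where 2.24% of all measured genes met both. They were Gzma, Gzmc, Gzmd, Gzme, Gzmg, Gzmk and Gzmm. Gzmg was listed at 0 with Klf4, and Gzmm was at 0.966 TPM in control. With a pseudocount of 5, Gzmg, Gzmk and Gzmm were inside 2-fold with Klf4, at -0.46, -0.62 and -0.62 log2. Relative to the median gene 3 did, Gzmc, Gzme and Gzmk, beside 1.83% of all measured genes. Relative to the receptor constant genes 0 members met both, beside 0.0239% of all measured genes, so the pattern ended on that scale. The 2 experiments share no library. Gzmb was inside 2-fold between the gain libraries on the first 2 of these scales and higher with Klf4 on the last, so none counted it. Its share of the granzyme sum was higher in the second library of both experiments, by 34.8 and 24.3 percentage points.

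**Figure D4:**
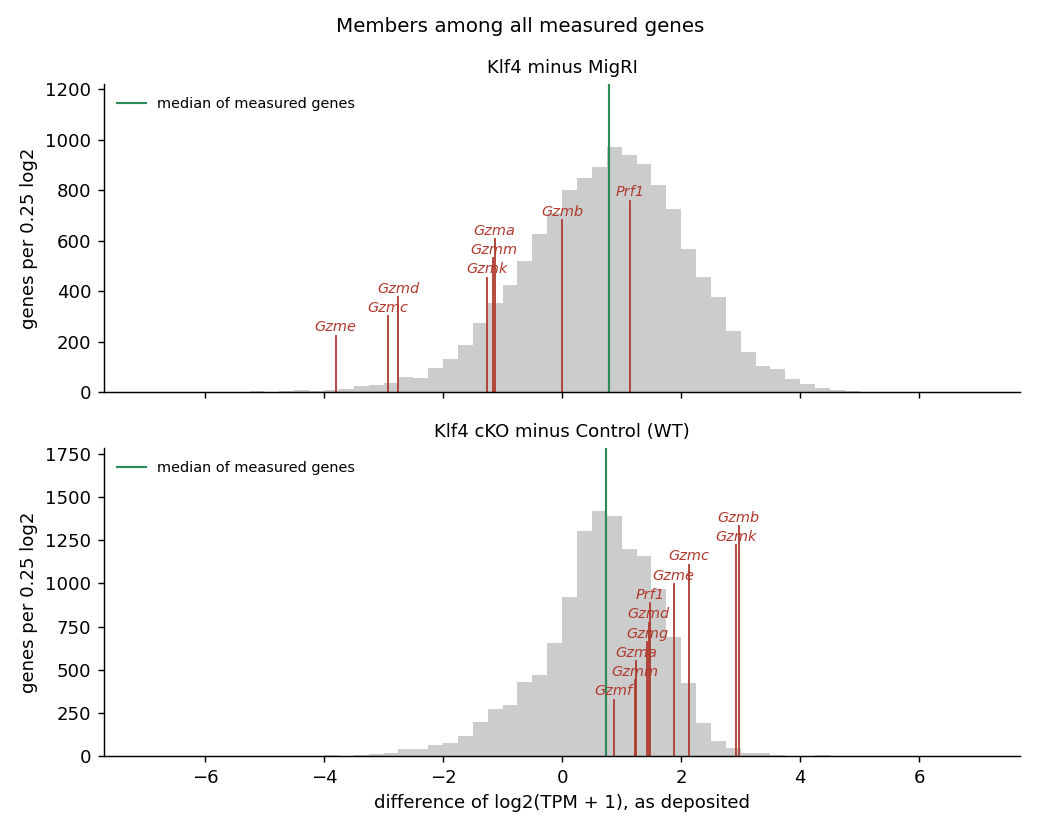
Number of measured genes (vertical axis) in each 0.25 log2 step of the deposited difference (horizontal axis), with the members above 0 in both libraries as red lines whose heights have no meaning. With Klf4, 6 of the 8 members shown lie below -1 while the median gene is at 0.79, and in the loss comparison Gzmb and Gzmk lie farthest to the right of the members.

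Other genes of the pathway were taken from fixed lists, and their counts below are relative to the median gene. The same call took 21.4% of all measured genes as higher with Klf4 and 23.6% as lower, and in the loss comparison 12.4% as higher and 16.2% as lower. Of 14 genes for granule maturation and cargo, 6 were at least 2-fold higher and 4 lower with Klf4, and 9 were higher and 0 lower in the library labelled Klf4 cKO. Nkg7, a granule membrane protein, Cst7, which encodes the cathepsin inhibitor cystatin F, and Ctsw, a cathepsin of killer cells, were lower with Klf4. Nkg7 read 10580 TPM in MigRI and 982 with Klf4, Cst7 at 272 and 43.0 TPM, and Ctsw at 236 and 39.6 TPM. Ctsl, a lysosomal protease of many cell types, was higher, at 19.5 and 300.3 TPM, as was the lysosomal membrane protein gene Lamp1, at 43.2 and 515 TPM. Ctsc, whose product removes the propeptide of granzymes, was at 34.5 and 147 TPM, and Srgn, the proteoglycan that packs them, at 445 and 302 TPM.

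In the loss experiment Srgn read 392 TPM in control and 1402 in the library labelled Klf4 cKO, Cst7 216 and 846 TPM, and Ctsw 163 and 797 TPM. Relative to the median gene these were differences of 1.10, 1.23 and 1.54 log2. Nkg7 read 17171 and 17548 TPM, or -0.71 log2 relative to the median gene, unlike the granzymes. Ctsl, at 5.87 and 38.7 TPM, and Lamp1, at 15.4 and 65.7 TPM, were higher too.

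Of 12 measured genes for granule transport and release, 1 was higher and 6 lower with Klf4, and 2 were higher and 1 lower in the library labelled Klf4 cKO. Rab27a, the small GTPase that brings granules to the membrane, was at 7.14 and 2.24 TPM in the gain libraries and had a relative difference of -0.48 log2 in the loss experiment. Vamp8, a fusion protein of vesicles, was at 1241 and 442 TPM and at 1929 and 1032 TPM, and was the gene of this list that was lower in both. Coro1a, which binds actin, was at 546 and 277 TPM and at 194 and 875 TPM. Of 6 granzyme inhibitors, 0 were higher and 3 lower with Klf4, and 2 were higher and 0 lower in the library labelled Klf4 cKO. Serpinb9, which shields the killer cell from its own granzyme B, was at 38.4 and 45.7 TPM in the gain libraries and at 27.4 and 129 TPM in the loss libraries, a relative log2 difference of 1.46 in the latter. It thus stood higher in the same library as Gzmb.

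Of 18 transcription factors known to act on granzyme and perforin genes, 5 were higher and 5 lower with Klf4, and 0 were higher and 1 lower in the library labelled Klf4 cKO. The counts with Klf4 are near the shares of all measured genes. Batf, an AP-1 factor of effector cells, read 124 TPM in MigRI and 18.1 with Klf4, and Stat4, which carries interleukin 12 signals, at 12.7 and 4.30 TPM. Jun was higher with Klf4, at 84.5 and 1381 TPM, and so was Klf2, a factor of resting cells, at 20.2 and 274 TPM. Tbx21, which encodes T-bet, was at 16.2 and 11.7 TPM in the gain libraries and at 14.6 and 33.7 TPM in the loss libraries, and Eomes lay between 1.40 and 2.36 TPM in all 4. Of 13 cytokine receptors and ligands, 2 were higher and 7 lower with Klf4, and 4 were higher and 0 lower in the library labelled Klf4 cKO. Fasl, the death ligand used beside granules, was at 52.7 and 13.0 TPM and at 37.7 and 113 TPM, so its levels took the order of Gzmc. Il2rb, Il18r1 and Tnfsf10 took the same order, and the other genes of this list did not. The 2 that were higher with Klf4 were Tnf, at 13.6 and 138 TPM in the gain libraries, and Il12rb1, at 2.80 and 28.6 TPM. Ifng was at 931 and 1970 TPM there and at 203 and 901 TPM in the loss libraries.

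Of 19 measured granzyme substrates and death genes, which act in the cell that is killed, 3 were higher and 5 lower with Klf4, and 3 were higher and 4 lower in the library labelled Klf4 cKO. Cycs, which encodes cytochrome c, was at 443 and 148 TPM in the gain libraries and at 320 and 149 TPM in the loss libraries. The medians of the 6 lists, relative to the median gene, lay between -1.06 and 0.12 log2 with Klf4 and between 0.05 and 1.05 log2 in the library labelled Klf4 cKO, beside -2.19 and 0.73 log2 for the 10 members.

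Markers of the sorted cells and of other cells also differed between the libraries. All 9 CD8 T cell markers were detected in each library, with sums of 23838, 5679, 7539 and 17483 TPM in MigRI, Klf4-transduced, control and Klf4 cKO. Relative to the median gene, 9 of 9 were lower by 2-fold or more with Klf4, and in the loss comparison 5 were higher and 1, Cd3d, was lower. Cd8a was at 168 and 43.9 TPM and at 136 and 518 TPM. The 10 macrophage and monocyte markers, none of them at 0 in any library, summed to 997, 5243, 369 and 1231 TPM, with 10 of 10 higher with Klf4 and 5 of 10 higher in the library labelled Klf4 cKO. The 7 fibroblast and endothelium markers summed to 134, 1269, 28.7 and 245 TPM, with Cdh5 at 0 in control. Their part in the granzyme differences was not tested.

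Mast cells and NK cells can carry granzymes of their own. The 8 mast cell markers summed to 1.91, 96.5, 0.278 and 65.6 TPM, and 5, 1, 7 and 1 of them were at 0, among them Tpsb2 in MigRI and in control. Ms4a2, a chain of the high-affinity IgE receptor, was at 0 in all 4 libraries. Mast cell protease genes that lie beside the granzymes on chromosome 14 did not share the order of Gzmc. Mcpt2 was listed at 0 in MigRI and in control and read 16.6 TPM with Klf4 and 29.3 in the library labelled Klf4 cKO, and Cma1 was at 0.957, 26.9, 0 and 20.9 TPM. Ncr1, a receptor that defines NK cells, was at 2.40 TPM or less in each library and at 0 in control. The 7 markers of NK and gamma delta T cells summed to 487, 667, 1023 and 659 TPM, most of it Fcer1g. Relative to the median gene, 0 of 6 measured markers were higher and 2 lower with Klf4. In the library labelled Klf4 cKO 1 was higher and 1 lower. The gamma delta receptor gene Trdc was at 15.8, 3.69, 0.338 and 5.61 TPM, and Tcrg-C1 at 2.86, 0, 2.85 and 6.29 TPM. The part of mast cells, NK cells and gamma delta T cells in the granzyme levels was not tested.

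The remaining marker lists covered other lymphoid, myeloid and tumour cells. The 4 markers of CD4 and regulatory T cells summed to 65.5, 16.7, 58.1 and 276 TPM, most of it Ctla4, with Cd4 at 0.813 TPM or less. The 5 plasmacytoid dendritic cell markers summed to 809, 2004, 388 and 936 TPM, most of it Bst2, with Siglech at 2.43 TPM or less. Of 3 measured, 2 were higher and 0 lower with Klf4 relative to the median gene. In the library labelled Klf4 cKO 1 was higher and 1 lower. Tcf4 was at 0.685, 18.7, 2.67 and 1.43 TPM, and Irf7 at 43.1, 244, 16.8 and 73.6 TPM. Dendritic cell, neutrophil and basophil, B cell and tumour epithelium markers summed to at most 12.7, 85.4, 70.2 and 7.86 TPM in any library, and Ms4a1, Prss34 and Krt20 were at 0 in all 4. Among those lists Ighm, an antibody heavy chain gene, was at 66.7, 46.5, 4.76 and 18.1 TPM in MigRI, Klf4-transduced, control and Klf4 cKO, and Cd79a, a chain of the B cell receptor, at 3.52, 20.6, 0.734 and 3.12 TPM. The neutrophil gene S100a9 read 9.86, 30.2, 10.9 and 0.732 TPM in the same order, and S100a8 read 50.9 TPM with Klf4, 18.1 in control and 2.44 in the library labelled Klf4 cKO. Their part in the granzyme differences was likewise not tested.

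**Figure D5:**
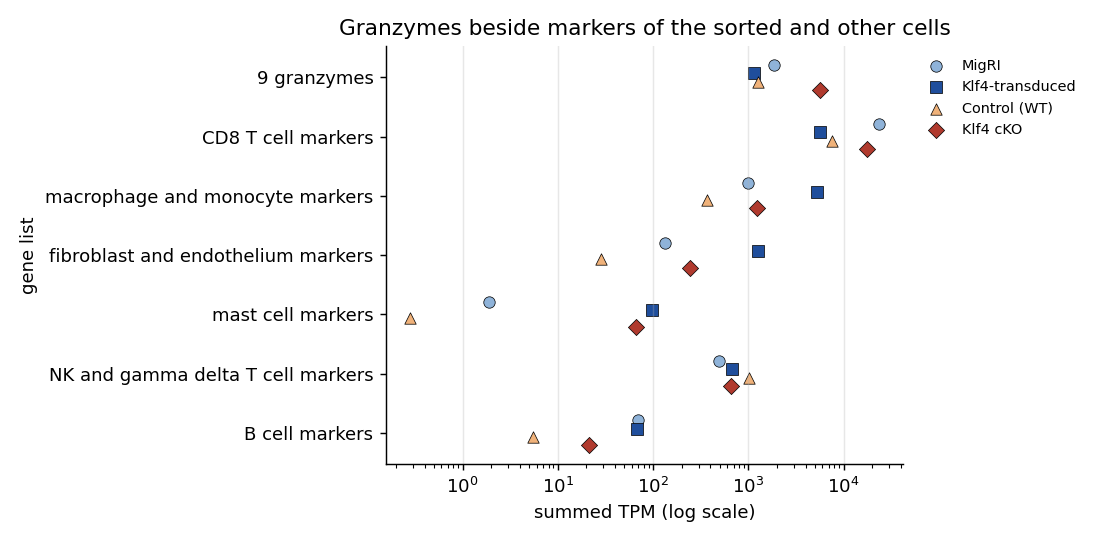
Summed TPM (horizontal axis, log scale) of the 9 granzymes and of 6 marker lists in each library. The granzyme and CD8 T cell sums are lower with Klf4 than in MigRI, while the macrophage, fibroblast and mast cell sums are higher, and all of these sums are higher in the library labelled Klf4 cKO than in control.

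The genes with the most similar pattern over the 4 libraries were found by the Euclidean distance between log2(TPM + 1) profiles, each centred on its own mean, among 4961 candidate genes at 20 TPM or more in their highest library. The distances rest on 4 points from the same libraries and are a description. For Gzma they were Rgs2, Neurl3 and Cxcr6, at distances of 0.11, 0.31 and 0.57, and Gzmg was its closest member at 0.72. Gzmg is a low gene that was listed at 0 with Klf4, so its distance depends on the pseudocount. Rgs2, a regulator of G protein signalling, was at 94.4, 44.7, 261 and 617 TPM. For Gzmc they were Tesc, Sla2 and Cd2, at 0.28, 0.37 and 0.39. Cd2, an adhesion receptor of T cells, was at 567, 93.2, 243 and 832 TPM. For Gzmb they were Ly6a2, H2-T23 and Phf11a, at 0.43, 0.52 and 0.58, and for Prf1 Ubash3b, Ptk2b and Sdcbp2, at 0.12, 0.26 and 0.32. The profile of Gzmb lay 2.24 from that of Gzmc and 1.60 from that of Prf1, so its neighbours on the chromosome were not its nearest patterns.

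The 250 bases before the RefSeq start are shown for Gzmb, Gzmc, Gzmf and Prf1, because these genes behaved differently with Klf4 and Kruppel-like factors bind CACCC boxes. The sequences are from RefSeq on GRCm38.p6, written 5′ to 3′ on the strand of the gene, and capitals mark the letters CACCC on either strand.
Gzmb, chr14:56262335-56262584, minus strand: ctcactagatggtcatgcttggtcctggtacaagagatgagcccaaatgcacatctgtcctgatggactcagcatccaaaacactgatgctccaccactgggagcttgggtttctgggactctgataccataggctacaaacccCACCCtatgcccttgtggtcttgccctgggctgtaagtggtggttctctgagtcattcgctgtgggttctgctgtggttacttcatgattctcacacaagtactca
Gzmc, chr14:56234658-56234907, minus strand: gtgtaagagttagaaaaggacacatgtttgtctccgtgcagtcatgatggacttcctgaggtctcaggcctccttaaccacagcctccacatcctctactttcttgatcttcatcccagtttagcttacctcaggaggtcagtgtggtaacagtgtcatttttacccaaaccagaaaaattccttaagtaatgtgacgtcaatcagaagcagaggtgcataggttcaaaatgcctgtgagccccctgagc
Gzmf, chr14:56211408-56211657, minus strand: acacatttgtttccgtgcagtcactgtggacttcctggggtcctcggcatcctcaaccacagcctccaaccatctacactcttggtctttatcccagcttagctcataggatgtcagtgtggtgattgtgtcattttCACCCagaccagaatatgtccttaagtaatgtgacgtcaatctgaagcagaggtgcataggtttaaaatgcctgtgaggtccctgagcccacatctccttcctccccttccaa
Prf1, chr10:61297586-61297835, plus strand: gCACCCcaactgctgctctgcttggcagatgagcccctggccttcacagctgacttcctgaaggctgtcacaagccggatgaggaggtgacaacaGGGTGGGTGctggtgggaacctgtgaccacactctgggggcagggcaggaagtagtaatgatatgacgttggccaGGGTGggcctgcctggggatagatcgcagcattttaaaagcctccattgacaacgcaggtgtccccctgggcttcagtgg
Every motif below was searched on both strands and overlapping matches were counted separately. In these windows CACCC was present 4 times for Prf1, 2 times for Gzmk and once each for Gzmb and Gzmf, and it did not occur for Gzma, Gzmc, Gzmd, Gzme or Gzmg. Gzmm, which has 2 annotated starts, had 2 matches at each. Of all 32851 promoter windows of this length, 52.0% held CACCC on at least 1 strand. The letters TGTGGT, bound by RUNX factors, occurred 2 times in each of Gzmb, Gzmc, Gzmd, Gzme, Gzmf and Gzmg, once each in Prf1, Gzma and 1 of the Gzmm windows, and in 14.0% of all windows. For Gzmc to Gzmg they stood in the same layout, with the first match between 195 and 174 bases before the start and the second between 133 and 108, whereas those of Gzmb lay 93 and 34 bases before it. Gzmb alone held the AP-1 letters TGANTCA, present in 6.75% of all windows, and Gzmc, Gzmf and Gzmg held the cyclic AMP element TGACGTCA, present in 1.55%. The T-box letters AGGTGTNA, present in 2.68% of all windows, did not occur in those of the members. These matches describe the letters in the windows and do not show binding.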

How the data were processed

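The SMART-seq v4 kit gave 1 library per group, and the authors deposited a TPM table for each. Per the submitters' processing notes, Trimmomatic, HISAT2, StringTie and edgeR were used on mm10. Their versions and roles are not stated there. A few abundant transcripts lower all other TPM values, and without strand overlapping genes share reads.

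Of 45777 entries, 26 symbols in the control file were dates. Those with a single reading were restored, which left 45773 genes. Differences are of log2(TPM + 1), which understates low genes, and 2-fold (1 log2) was called. The members and lists were chosen with earlier results of these data known. Named were all members, up to 4 genes of each list with the largest relative difference in either comparison, the CD8 T cell markers and the 3 nearest patterns of Gzma, Gzmb, Gzmc and Prf1. Srgn, Ctsc, Tbx21, Eomes, Il2rb, Tnfsf10 and the other markers were chosen after their values were seen. Vamp7 was not matched. Coding sequences came from GENCODE vM21 (longest coding transcript, Biopython 1.88) and promoters from RefSeq. Python 3.11.15 and pandas 2.3.3 were used, and scripts were tested on simulated data. The alternatives were pseudocounts of 0.1 and 5, filters of 0 and 10 TPM, 5 scalings and other sums.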

Additional observations from a re-analysis of the deposited data

How the results depend on the processing

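Each result rests on 1 library per group, and the unknown depth limits the members at a few TPM or less. These are Gzmg, Gzmm, Gzmk in the gain experiment, and Gzmd and Gzme with Klf4. No paired analysis was possible because each group has 1 library.

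For Klf4-transduced minus MigRI, the summed granzyme difference of -0.71 log2 was -1.50 relative to the median gene, -1.71 under median of ratios scaling and -2.72 without Gzmb, and it turned to 1.32 relative to Trac, Trbc1 and Trbc2. The 1 member at least 2-fold higher became 0 relative to the median gene, under median of ratios scaling and without the 50 most abundant genes, and 2 relative to the receptor genes. The 8 lower members became 2 relative to the receptor genes, 5 with a pseudocount of 5 and 6 at a mean of at least 10 TPM. Of the 2, only 1, Gzme, was above 0 in both libraries, at 0.511 TPM with Klf4. For Klf4 cKO minus control, the summed difference of 2.15 log2 was 1.41 relative to the median gene, 1.27 under median of ratios scaling and 0.33 relative to the receptor genes. The 9 higher members became 4 relative to the median gene and under median of ratios scaling, 2 relative to the receptor genes, and 7 with a pseudocount of 5 and at a mean of at least 10 TPM.

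Relative to the receptor genes, several member differences turned sign. With Klf4 these were Gzma at 0.90, Gzmk at 0.77 and Gzmm at 0.88 log2, and Gzmg at 0.51 log2. Gzmg was listed at 0 with Klf4, so its value is set by the pseudocount and shows no rise. The values of the low genes Gzmk and Gzmm also depend on the pseudocount. In the library labelled Klf4 cKO, Gzma at -0.57, Gzmd at -0.36 and Gzmf at -0.95 log2 turned sign. Gzmg at -0.39, Gzmm at -0.60 and Prf1 at -0.34 log2 did so too. This alternative subtracts the difference of the receptor genes by construction. Counting Prf1 in the sum put the Gzmb share at 53.0%, 83.5%, 30.1% and 54.2% in MigRI, Klf4-transduced, control and Klf4 cKO, and Gzmn, listed at 0, left it as it was. Gzmb with Klf4, level as deposited, ranged from -0.995 under median of ratios scaling to 2.04 relative to the receptor genes, and Gzmf in the library labelled Klf4 cKO was at -0.0066 under median of ratios scaling. All 10 members averaged 1 TPM or more, so the counts with a filter of 0 TPM could not differ from the main ones. Of 36 alternative counts, 24 equalled the main count. Of 54 alternative values of sums and counts, 40 kept their direction and their side of 2-fold (for counts, stayed within 1.5 times) and 14 did not. Of 140 alternative member differences, 102 kept both and 38 did not. The cause was not tested.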
